A study of Mus musculus with 9 samples.

Results

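The matrix metalloproteinases (Mmp), their tissue inhibitors (Timp) and the related ADAM and ADAMTS proteases were followed in mouse fat cells with reduced Ebf1, a DNA-binding protein of the EBF family that takes part in fat cell formation. A gene was a member when its symbol in the array's annotation was Mmp, Timp, Adam or Adamts followed by a number and at most 1 letter. This held for 65 of the 18193 genes on the array, read by 116 probe sets. Where a gene had several probe sets, the brightest over all 9 arrays stood for it. Of the 65 genes, 37 were bright enough to be tested, among 12735 genes tested in all.

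The study used mature 3T3-L1 adipocytes, a mouse preadipocyte line turned into fat cells in culture, and its question was which genes depend on Ebf1 in such cells. The cells carried lentivirus with short hairpin 2 against Ebf1, short hairpin 1 against Ebf1, or a scrambled control hairpin, with 3 arrays per group. Every group, the scrambled control included, went through 3 to 4 rounds of viral infection and at least 8 days in puromycin at 5 µg/ml, which kills untransduced cells. The model is a single cell line in culture, and array titles number the repeats of a group without saying whether they were separate cultures, so p-values measure the spread between arrays, which may be technical.

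As background, MMPs are zinc proteases that cut collagens and other matrix proteins, and TIMPs bind their active sites and block them. ADAMs sit in the cell membrane and release the outer parts of other membrane proteins, while ADAMTS proteases are secreted and cut proteoglycans such as aggrecan and versican. Fat cells are wrapped in a basement membrane and embedded in collagen, and this matrix is rebuilt as adipose tissue grows.

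Ebf1 itself read 8.90, 8.72 and 9.20 on the log2 scale with hairpin 2, 9.32, 9.54 and 9.45 with hairpin 1, and 10.12, 10.15 and 10.31 with the scrambled hairpin. No groups overlapped. The fall with hairpin 2 was -1.25 (SE 0.113, limma adjusted p = 2.98e-07), and that with hairpin 1 was -0.75 (adjusted p = 0.000102). Signals are log2 values from RMA, array medians lay between 6.31 and 6.38, and arrays correlated at 0.994 to 0.998 within groups and 0.974 to 0.989 between groups. Beside the marker counts that follow, 21.5% of all tested genes were higher and 13.3% lower with hairpin 2 (limma adjusted p below 0.05). With hairpin 1 these shares were 23.7% and 9.23%. Of 7 tested adipocyte markers, 0 changed with hairpin 1, and Cidec, a lipid droplet protein, fell with hairpin 2 (-0.25, adjusted p = 0.00255). The mean of the adipocyte list spanned 12.46 to 12.51 with hairpin 2, 12.46 to 12.57 with hairpin 1 and 12.46 to 12.57 with the scrambled hairpin, while the leptin gene Lep lay under the filter in cells labelled as mature fat cells. Of 7 tested preadipocyte and fibroblast markers, 5 rose and 1 fell with hairpin 2, and 7 rose with hairpin 1. Their mean spanned 10.05 to 10.10 with hairpin 2, 10.23 to 10.36 with hairpin 1 and 9.53 to 9.69 with the scrambled hairpin, so both hairpin groups lay above the scrambled one, and Cd34 and Fap lay under the filter. Of 6 tested macrophage markers, 1 rose and 2 fell with hairpin 2 and 2 fell with hairpin 1, with Adgre1, Ptprc and Itgam under the filter, and 0 changed of the 1 endothelial and 1 testis marker tested. The part of these markers in the results below was not tested. The arrays read bulk RNA, so more or fewer cells of a type and more or less RNA per cell cannot be told apart.

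With hairpin 2, 11 of the 37 tested genes rose by at least 0.5 log2 units (29.7%, against 8.85% of all tested genes), a size chosen with the values known: Mmp2, Mmp14, Mmp19, Mmp23, Timp1, Adamts1, Adamts4, Adamts5, Adamts10, Adamts15 and Adam9. Of these, Mmp14, Mmp19, Mmp23, Adamts1, Adamts5 and Adamts10 also rose with hairpin 1 by 0.47 to 1.64, and Timp1 and Adamts4 by 0.37 and 0.31. Adamts15 passed no test with hairpin 1, while Mmp2 fell and Adam9 differed by -0.16. The other large fall with hairpin 1 was in Adam10, at -0.99. Collagenase genes lay under the filter, and the tested ADAM genes known from testis passed no test.

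With hairpin 2, 13 of the 37 tested genes were higher than with the scrambled hairpin at a limma adjusted p below 0.05 (35.1%, against 21.5% of all tested genes). In the same comparison 1 of 37 was lower (2.7%, against 13.3% of all tested genes). That gene was Mmp11, and leaving out hairpin 2 array 1 or any of the 3 scrambled arrays brought the count to 0. With hairpin 1, 11 were higher (29.7%, against 23.7% of all tested genes) and 4 lower (10.8%, against 9.23%), shares that lie near those of all genes. After quantile normalization the hairpin 1 counts were 8 higher and 5 lower, with 19.3% and 13.3% of all tested genes. In the mean of both hairpins, 12 were higher (32.4%, against 23.8%) and 2 lower (5.41%, against 10.7%), and the lower count was 1 without scrambled array 1 or 2. For the mean of both, quantile normalization gave 12 higher and 3 lower, with 21.3% and 15% of all tested genes.

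Taking either hairpin, 18 of 37 passed the test with at least 1 of them (48.6%, against 47.7% of all tested genes), so the overall share of changed genes is not a result about the proteases. Counts of larger rises were 7 of 37 with hairpin 2 (18.9%, against 1.91% of all tested genes) and 1 of 37 with hairpin 1 (2.7%, against 0.997%), for a rise of at least 1 log2 unit, a size chosen with the values known. The median difference over the 37 genes was 0.08 with hairpin 2 and 0.02 with hairpin 1, beside 0.02 with hairpin 2 and 0.07 with hairpin 1 over all 12735. The hairpin comparisons share the scrambled arrays, so their values are given side by side and are not independent of each other. In the plot of all 37 differences, the hairpin 2 values run from 1.27 down to -0.31.

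**Figure D1:**
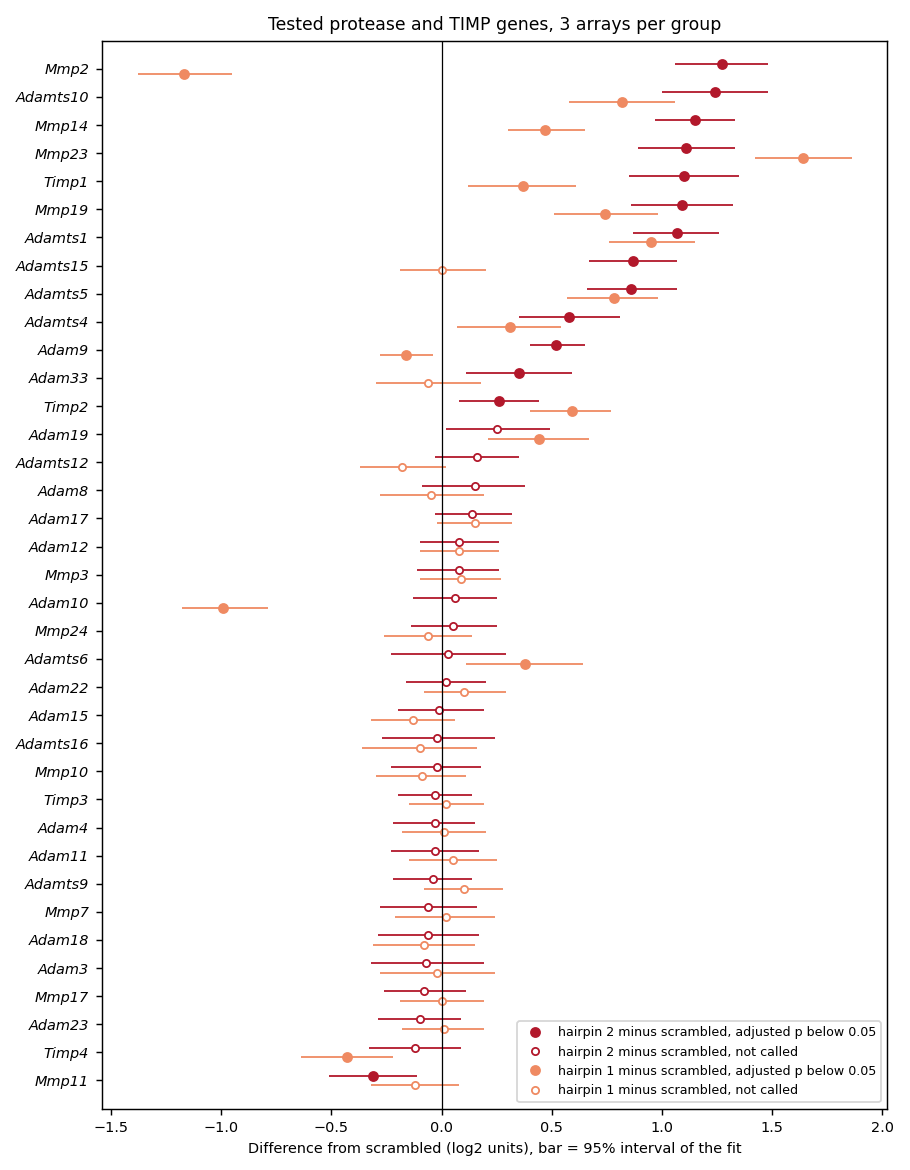
Difference from the scrambled arrays in log2 units (horizontal) for the 37 tested genes, ordered by the hairpin 2 difference, for hairpin 2 and hairpin 1. Filled points passed a limma adjusted p below 0.05, and bars are 95% intervals of the fit; Mmp2 lies at 1.27 with hairpin 2 and at -1.17 with hairpin 1, and Mmp23 at 1.11 with hairpin 2 and 1.64 with hairpin 1.

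Of the gelatinases, which cut denatured collagen and basement membrane collagen, Mmp2 was tested. Mmp2 read 11.69, 11.76 and 11.68 with hairpin 2, 9.10, 9.42 and 9.32 with hairpin 1, and 10.62, 10.26 and 10.45 with the scrambled hairpin. The hairpin 2 arrays all lay above and the hairpin 1 arrays all below the scrambled arrays. Mmp2 rose with hairpin 2 (1.27, SE 0.0997, 2.41-fold, limma adjusted p = 5.82e-08) and fell with hairpin 1 (-1.17, 2.24-fold, adjusted p = 3.22e-07). Hairpin 2 minus hairpin 1 came to 2.44 log2 units (95% interval 2.22 to 2.65, 5.41-fold, adjusted p = 9.59e-11). The mean of both hairpins was 0.05 above scrambled (adjusted p = 0.695). The other Mmp2 probe set differed by 1.25 with hairpin 2 and -1.46 with hairpin 1, with the same calls. The other gelatinase gene, Mmp9, lay under the filter, at means of 5.58 with hairpin 2, 5.65 with hairpin 1 and 5.59 with the scrambled hairpin.

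**Figure D2:**
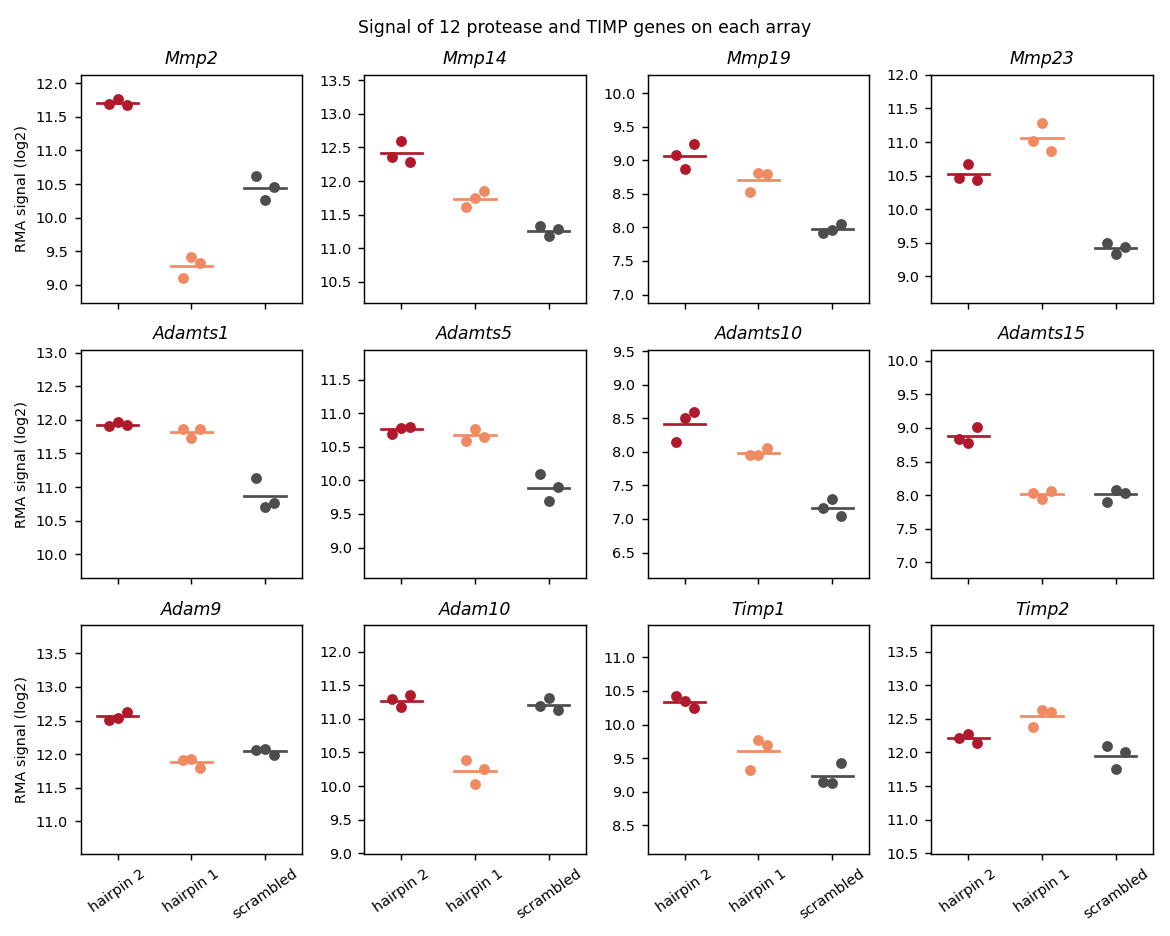
RMA signal (log2) of 12 genes on each array, with hairpin 2 left, hairpin 1 in the middle and scrambled right; points are single arrays, lines are means of 3 arrays, and every panel spans the same height. Mmp2 on the hairpin 1 arrays (9.10 to 9.42) and Adam10 on the hairpin 1 arrays (10.03 to 10.38) lie below both other groups, and Adamts15 is high on the hairpin 2 arrays (8.78 to 9.02).

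Among membrane-type MMPs, which are anchored to the cell surface, 1 of 3 tested genes changed, beside 47.7% of all tested genes. Mmp14, the main membrane-type collagenase and the activator of the Mmp2 proenzyme, read 12.35, 12.59 and 12.29 with hairpin 2, 11.61, 11.75 and 11.85 with hairpin 1, and 11.33, 11.18 and 11.28 with the scrambled hairpin. The 3 groups did not overlap. Mmp14 rose by 1.15 with hairpin 2 (SE 0.0832, 2.22-fold, limma adjusted p = 2.22e-08) and by 0.47 with hairpin 1 (1.39-fold, adjusted p = 0.000425). Hairpin 2 was higher than hairpin 1 by 0.68 (adjusted p = 1.65e-05). All 3 Mmp14 probe sets gave these calls, at 0.90 to 1.55 with hairpin 2 and 0.43 to 0.68 with hairpin 1. Mmp17 and Mmp24 differed by -0.08 and 0.05 with hairpin 2 and by 0.00 and -0.06 with hairpin 1, and passed no test. Mmp16 lay under the filter.

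The Mmp14 promoter is shown because it was the only matched member window with the longer form of the motif known for EBF proteins, which is CCCNNGGG with a T before and an A after it. The 250 bases upstream of the Mmp14 start, from RefSeq on GRCm38.p6 at chr14:54431348-54431597 on the plus strand, are given with the longer match in capitals, which begins at position -183 from the start.
Mmp14: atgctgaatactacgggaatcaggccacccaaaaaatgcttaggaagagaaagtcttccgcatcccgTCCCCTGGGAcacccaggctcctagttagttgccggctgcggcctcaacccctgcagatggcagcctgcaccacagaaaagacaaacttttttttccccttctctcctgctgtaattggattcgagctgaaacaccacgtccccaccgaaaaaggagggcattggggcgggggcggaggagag
RefSeq held promoter windows for 37 of the 65 members, 42 windows in all, and both strands were searched. These are not the 37 tested genes, and only 6 members called higher with either hairpin had a window. Among those called higher, Mmp2, Mmp19, Adam9, Adam33, Adamts4, Adamts5, Adamts6, Adamts10 and Adamts15 had none, so their promoters were not searched. The longer motif was in 1 of these 42 (2.38%) and in 256 of 32851 windows of all genes (0.779%). The core CCCNNGGG, which every longer match contains, was in 7 of 42 (16.7%), in Adam19, Adam23, Adamts9, Adamts20, Mmp14, Mmp20 and Mmp24, and in 11.8% of all windows. Of these 7 genes, Adam19 and Mmp14 were higher with at least 1 hairpin, Adam23, Adamts9 and Mmp24 were called with neither, and Adamts20 and Mmp20 were not tested. A match is a description of letters in a window, and binding of Ebf1 was not measured.

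The other secreted or membrane MMPs tested were Mmp19, which can cut basement membrane proteins, and Mmp23, a membrane-bound MMP that lacks the haemopexin domain of most of the family. Both rose with both hairpins, beside 21.5% of all tested genes higher with hairpin 2 and 23.7% with hairpin 1. Mmp19 read 9.08, 8.87 and 9.24 with hairpin 2, 8.52, 8.81 and 8.80 with hairpin 1, and 7.91, 7.96 and 8.05 with the scrambled hairpin. It was higher by 1.09 with hairpin 2 (SE 0.11, 2.13-fold, limma adjusted p = 1.05e-06) and by 0.74 with hairpin 1 (1.67-fold, adjusted p = 9.31e-05). The groups did not overlap, and on the other Mmp19 probe set the differences were 0.76 with hairpin 2 (called) and 0.27 with hairpin 1 (adjusted p = 0.137). Hairpin 2 exceeded hairpin 1 by 0.35 (adjusted p = 0.0262), a call that ended without hairpin 1 array 1 (0.0801), hairpin 2 array 1 (0.0714) or hairpin 2 array 3 (0.117).

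Mmp23 had the largest rise with hairpin 1 among the tested members. It read 10.46, 10.67 and 10.44 with hairpin 2, 11.01, 11.28 and 10.87 with hairpin 1, and 9.49, 9.33 and 9.44 with the scrambled hairpin. The hairpin 1 arrays were highest and no groups overlapped. The difference was 1.11 with hairpin 2 (SE 0.104, 2.15-fold, limma adjusted p = 4.49e-07) and 1.64 for hairpin 1 (3.11-fold, adjusted p = 1.08e-08). Unlike Mmp14 and Mmp19, Mmp23 was lower with hairpin 2 than with hairpin 1, by -0.53 (adjusted p = 0.00114), and its other probe set gave 1.42 with hairpin 2, 1.95 with hairpin 1 and the same -0.53 between hairpins. Mmp12, the macrophage elastase, and Mmp20, an enzyme of tooth enamel, lay under the filter.

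Of the 4 stromelysin and matrilysin genes, Mmp11 was lower with hairpin 2 and the others passed no test. The share of all tested genes that was lower with hairpin 2 was 13.3%, and 47.7% passed with at least 1 hairpin. Mmp11, whose enzyme is activated inside the cell by furin, read 9.02, 9.29 and 9.21 with hairpin 2, 9.21, 9.46 and 9.40 with hairpin 1, and 9.47, 9.49 and 9.47 with the scrambled hairpin. All hairpin arrays were below all scrambled arrays. The difference was -0.31 with hairpin 2 (SE 0.0952, limma adjusted p = 0.0185) and -0.12 with hairpin 1 (adjusted p = 0.359). The hairpin 2 call ended without hairpin 2 array 1 (0.104) or scrambled array 1, 2 or 3 (0.0546, 0.0624 and 0.0543). Mmp3, Mmp7 and Mmp10 differed by -0.06 to 0.08 with hairpin 2 and by -0.09 to 0.09 with hairpin 1.

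The collagenase genes Mmp1a, Mmp1b, Mmp8 and Mmp13, whose enzymes cut intact fibrillar collagen, all lay under the filter. With no filter Mmp13 passed the test with both hairpins, at means of 4.99 with hairpin 2, 4.94 with hairpin 1 and 4.54 with the scrambled hairpin, all below the filter level of 5.72. In the RefSeq gene order, 9 Mmp genes follow each other in a run with at most 2 other genes between neighbours: Mmp13, Mmp12, Mmp1b, Mmp3, Mmp1a, Mmp10, Mmp8, Mmp20 and Mmp7. Of these 9, 3 were tested (Mmp3, Mmp7 and Mmp10) and 0 passed with either hairpin, beside 47.7% of all tested genes.

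Promoters of MMP genes are known for the binding site of the AP-1 factors, TGANTCA, and 8 windows of the run are shown because they hold it while its 3 tested genes passed no test with either hairpin. The window of Mmp8, the other gene of the run, has no match. Mmp12 and Mmp7 each have a further window, at another start, that has no match either. Each line gives 35 bases around the match on the strand of the gene, GRCm38.p6, with the motif in capitals.
Mmp13: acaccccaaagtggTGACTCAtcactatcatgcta
Mmp12: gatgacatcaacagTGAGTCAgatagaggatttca
Mmp1b: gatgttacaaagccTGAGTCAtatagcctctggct
Mmp3: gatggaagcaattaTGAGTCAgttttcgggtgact
Mmp1a: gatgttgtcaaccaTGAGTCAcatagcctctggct
Mmp10: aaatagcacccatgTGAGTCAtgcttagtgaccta
Mmp20: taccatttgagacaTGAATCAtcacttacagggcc
Mmp7: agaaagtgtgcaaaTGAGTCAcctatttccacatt
The windows lie at chr9:7272465-7272499 (plus strand) for Mmp13, chr9:7347316-7347350 (plus) for Mmp12, chr9:7388099-7388133 (minus) for Mmp1b and chr9:7445762-7445796 (plus) for Mmp3. Those of the other genes lie at chr9:7464054-7464088 for Mmp1a, chr9:7502265-7502299 for Mmp10, chr9:7628122-7628156 for Mmp20 and chr9:7692013-7692047 for Mmp7, all on the plus strand. The first base of the motif was 35 bases before the start of Mmp13, 44 for Mmp12, 46 for Mmp3, 63 for Mmp10 and Mmp7, 73 for Mmp1a, 93 for Mmp1b and 95 for Mmp20. The letters TGANTCA, searched on both strands, were in 10 of the 42 member windows (23.8%) and in 2217 of 32851 windows of all genes (6.75%). The remaining matches were in Adam19 and Adam25, and 1 of 9 windows of members called higher with either hairpin held it. Those 9 windows belong to 6 genes, and the other members called higher had no window. Genes of this run share sequence and position, so the matches are not independent of each other.

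Among the 4 TIMPs, 2 rose with both hairpins, 1 fell with hairpin 1 and 1 passed no test. Beside them, 21.5% of all tested genes were higher with hairpin 2, and 23.7% were higher and 9.23% lower with hairpin 1. Timp1, a secreted inhibitor of most MMPs, read 10.42, 10.35 and 10.25 with hairpin 2, 9.33, 9.77 and 9.70 with hairpin 1, and 9.15, 9.13 and 9.43 with the scrambled hairpin. The hairpin 2 arrays stood above all others, while the lowest hairpin 1 array lay within the scrambled range. Timp1 rose by 1.10 with hairpin 2 (SE 0.117, 2.15-fold, limma adjusted p = 1.83e-06) and by 0.37 with hairpin 1 (1.29-fold, adjusted p = 0.0252). The hairpin 1 call ended without hairpin 1 array 2 (0.117) or 3 (0.0982) or scrambled array 1 (0.103) or 2 (0.108), and after quantile normalization (0.0515). Hairpin 2 was higher than hairpin 1 by 0.74 (adjusted p = 0.000193).

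Timp2, which blocks MMPs and also bridges Mmp14 and the Mmp2 proenzyme at the cell surface, read 12.21, 12.27 and 12.14 with hairpin 2, 12.38, 12.63 and 12.60 with hairpin 1, and 12.10, 11.75 and 12.01 with the scrambled hairpin. The 3 groups did not overlap, with hairpin 1 highest. The difference was 0.26 with hairpin 2 (SE 0.0849, limma adjusted p = 0.0272) and 0.59 for hairpin 1 (1.5-fold, adjusted p = 7.42e-05). The hairpin 2 call ended without hairpin 2 array 1 (0.0672), hairpin 2 array 2 (0.1) or scrambled array 2 (0.172, with a difference of 0.16). With no variance trend it ended too (0.0672). Hairpin 2 minus hairpin 1 was -0.33 (adjusted p = 0.00831) on the brightest of 6 Timp2 probe sets and 0.07 (adjusted p = 0.629) on the mean of all 6, so its order between hairpins depends on the probe set. All 6 lay higher with each hairpin than with the scrambled one, but most of the 5 dimmer ones were not called. Of these 5, all above the filter, 2 were called higher with hairpin 2 and 1 with hairpin 1.

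Timp4, a TIMP found in adipose tissue, read 8.13, 7.89 and 8.24 with hairpin 2, 7.84, 7.71 and 7.79 with hairpin 1, and 8.19, 8.28 and 8.16 with the scrambled hairpin. Hairpin 1 arrays were lower than all others. Timp4 fell with hairpin 1 (-0.43, SE 0.0988, 1.35-fold, limma adjusted p = 0.00327), while the hairpin 2 difference was -0.12 (adjusted p = 0.387). Its other probe set averaged 7.86 with hairpin 2, 7.78 with hairpin 1 and 7.80 with the scrambled hairpin, with no call. Hairpin 2 minus hairpin 1 was 0.31 (adjusted p = 0.0278), a call that ended without hairpin 2 array 1 (0.0837) or 3 (0.113) or hairpin 1 array 2 (0.0888) or 3 (0.0661), and on the mean of both probe sets (0.19, 0.0813). Timp3, which is bound to the matrix and also blocks Adam17 and aggrecanases, averaged 6.15 ± 0.08 with hairpin 2, 6.21 ± 0.03 with hairpin 1 and 6.18 ± 0.01 with the scrambled hairpin (SD, n = 3 each), with differences of -0.03 for hairpin 2 and 0.02 for hairpin 1.

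Of the 5 tested ADAMTS genes whose enzymes cut aggrecan and versican, 4 rose with hairpin 2 and 3 with hairpin 1. Among all tested genes, 21.5% were higher with hairpin 2 and 23.7% with hairpin 1. Adamts1 read 11.91, 11.97 and 11.92 with hairpin 2, 11.86, 11.73 and 11.87 with hairpin 1, and 11.13, 10.71 and 10.76 with the scrambled hairpin. All arrays of both hairpins exceeded all scrambled arrays. It was higher by 1.07 with hairpin 2 (SE 0.092, 2.1-fold, limma adjusted p = 1.66e-07) and by 0.95 with hairpin 1 (1.94-fold, adjusted p = 1.18e-06). Between hairpins the difference was 0.12 (95% interval -0.08 to 0.31, adjusted p = 0.389).

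Adamts5, a main aggrecanase of mouse cartilage, read 10.69, 10.78 and 10.79 with hairpin 2, 10.59, 10.77 and 10.65 with hairpin 1, and 10.09, 9.69 and 9.90 with the scrambled hairpin. Like Adamts1 it was higher on every hairpin array than on any scrambled array. It rose by 0.86 with hairpin 2 (SE 0.0956, 1.82-fold, limma adjusted p = 2.93e-06) and by 0.78 with hairpin 1 (1.71-fold, adjusted p = 1.50e-05), and the hairpins differed by 0.08 (95% interval -0.12 to 0.29). On its 2 other probe sets above the filter the hairpin 2 differences were 0.77 (called) and 0.23 (not called), and the hairpin 1 differences were 0.52 and 0.62 (both called). The dimmer of them was lower with hairpin 2 than with hairpin 1 (-0.39, adjusted p = 0.0194).

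Adamts15, another protease of versican, read 8.83, 8.78 and 9.02 with hairpin 2, 8.03, 7.94 and 8.06 with hairpin 1, and 7.90, 8.08 and 8.03 with the scrambled hairpin. Hairpin 1 and scrambled arrays overlapped and the hairpin 2 arrays stood apart. It rose with hairpin 2 (0.87, SE 0.0937, 1.83-fold, limma adjusted p = 2.13e-06) and differed by 0.00 with hairpin 1 (95% interval -0.19 to 0.20, adjusted p = 0.976). Hairpin 2 exceeded hairpin 1 by 0.87 (adjusted p = 4.91e-06).

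Adamts4, another aggrecanase, had low signal throughout, at 6.78, 6.55 and 6.57 with hairpin 2, 6.56, 6.15 and 6.37 with hairpin 1, and 5.98 to 6.17 with the scrambled hairpin. The hairpin 2 arrays were clear of the scrambled arrays and the hairpin 1 arrays were not. It rose with hairpin 2 (0.58, SE 0.109, 1.49-fold, limma adjusted p = 0.000541) and with hairpin 1 (0.31, adjusted p = 0.0409). The hairpin 1 call ended without hairpin 1 array 1 (0.15) or 3 (0.0967) or scrambled array 1 (0.137) or 2 (0.125). It also ended with no filter (0.0551), after quantile normalization (0.076), with equal array medians (0.086) and on the mean of all probe sets (0.16, 0.211). Adamts9 averaged 8.75 ± 0.02 with hairpin 2, 8.89 ± 0.11 with hairpin 1 and 8.79 ± 0.04 with the scrambled hairpin and passed no test on its brightest probe set. Of its 2 other probe sets, 1 was higher with hairpin 1 (0.47, adjusted p = 0.0347), and neither was called with hairpin 2. Adamts8 and Adamts20 lay under the filter.

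Of 4 other tested ADAMTS genes, Adamts10, which binds the microfibril protein fibrillin, rose with both hairpins. The shares of all tested genes that were higher were 21.5% with hairpin 2 and 23.7% with hairpin 1. Adamts10 is given first. It read 8.14, 8.50 and 8.59 with hairpin 2, 7.95, 7.95 and 8.05 with hairpin 1, and 7.17, 7.29 and 7.04 with the scrambled hairpin, with no overlap between groups. The rise was 1.24 with hairpin 2 (SE 0.113, 2.37-fold, limma adjusted p = 3.30e-07) and 0.82 for hairpin 1 (1.76-fold, adjusted p = 4.73e-05). Hairpin 2 exceeded hairpin 1 by 0.43 (adjusted p = 0.0101), a call that ended without hairpin 2 array 3 (0.0507) and on the mean of both probe sets (0.20, 0.0971). Its other, dimmer probe set differed by 0.21 with hairpin 2 and 0.23 with hairpin 1 and was called in neither comparison, so the rise was seen on 1 of 2 probe sets.

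Adamts6, the close relative of Adamts10, read 6.84, 6.99 and 7.08 with hairpin 2, 7.05, 7.52 and 7.40 with hairpin 1, and 7.13, 6.91 and 6.79 with the scrambled hairpin. On this probe set all groups overlapped. The difference was 0.03 with hairpin 2 (limma adjusted p = 0.902) and 0.38 with hairpin 1 (SE 0.123, adjusted p = 0.0279). The hairpin 1 call ended without hairpin 1 array 2 (0.141) or 3 (0.094) or scrambled array 2 (0.0837) or 3 (0.123), and after quantile normalization (0.0625). The other Adamts6 probe set, also above the filter, read 6.56 to 6.99 with hairpin 2, 6.65 to 7.27 with hairpin 1 and 6.11 to 6.31 with the scrambled hairpin, so there both hairpin groups lay above the scrambled one. It was higher by 0.49 with hairpin 2 (limma adjusted p = 0.0369) and by 0.83 with hairpin 1 (adjusted p = 0.00179), so the Adamts6 result with hairpin 2 depends on the probe set. Hairpin 2 minus hairpin 1 was -0.35 (adjusted p = 0.0441), and this call ended when any of 5 arrays was left out: hairpin 2 array 1 (0.159) or 2 (0.0819), hairpin 1 array 2 (0.197) or 3 (0.133), or scrambled array 2 (0.0582). It also ended on the mean of both probe sets (-0.34, 0.072), with no filter (0.0647), after quantile normalization (0.0643), with equal array medians (0.0594) and with no variance trend (0.0562).

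Adamts12, whose enzyme cuts cartilage oligomeric matrix protein, passed neither test against scrambled but differed between hairpins. It read 10.74, 10.76 and 10.84 with hairpin 2, 10.24, 10.61 and 10.47 with hairpin 1, and 10.68, 10.61 and 10.56 with the scrambled hairpin. The hairpin 2 arrays were the highest. Differences were 0.16 with hairpin 2 (SE 0.0901, limma adjusted p = 0.189), -0.18 with hairpin 1 (adjusted p = 0.153) and 0.34 between them (adjusted p = 0.01). The call between hairpins ended on the mean of both probe sets (0.13, adjusted p = 0.221), of which the second lies under the filter. The hairpin 1 difference passed without hairpin 1 array 2 (-0.26, 0.0378), after quantile normalization (-0.25, 0.0148) and with array weights (-0.15, 0.0254). Adamts16 passed no test. Adamts3, a procollagen N-proteinase, and Adamts7, Adamts18 and Adamts19 lay under the filter.

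Of 8 tested ADAM genes with a protease site and a wide tissue range, 2 rose with hairpin 2, and with hairpin 1 another rose and 2 fell. Over all tested genes, 21.5% were higher with hairpin 2, and 23.7% were higher and 9.23% lower with hairpin 1. Adam10, the main sheddase of Notch receptors and of the amyloid precursor protein, read 11.29, 11.17 and 11.35 with hairpin 2, 10.38, 10.03 and 10.25 with hairpin 1, and 11.19, 11.31 and 11.13 with the scrambled hairpin. Hairpin 2 and scrambled arrays overlapped, and the hairpin 1 arrays were all lower. Adam10 fell with hairpin 1 (-0.99, SE 0.0912, 1.98-fold, limma adjusted p = 7.24e-07) and differed by 0.06 with hairpin 2 (95% interval -0.13 to 0.25, adjusted p = 0.681). Hairpin 2 exceeded hairpin 1 by 1.05 (2.07-fold, adjusted p = 5.01e-07). Of its 3 other probe sets, 2 gave the hairpin 1 fall, at -1.14 and -0.79, and the dimmest differed by -0.01. With hairpin 2 these 3 differed by 0.16, -0.37 and -0.06, in the same order. None was called in the fit over all probe sets, which adjusts over more tests than the gene fit. At -0.37 (limma adjusted p = 0.0559) all hairpin 2 arrays lay below the scrambled arrays, and hairpin 2 exceeded hairpin 1 by 0.41 (adjusted p = 0.0429). The size of the hairpin 2 difference thus depends on the probe set.

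Adam9, a membrane protease that sheds several growth factors, read 12.51, 12.54 and 12.63 with hairpin 2, 11.91, 11.92 and 11.80 with hairpin 1, and 12.06, 12.07 and 11.98 with the scrambled hairpin. Its 3 groups did not overlap, and as with Mmp2 hairpin 2 was highest and hairpin 1 lowest. It rose with hairpin 2 (0.52, SE 0.0583, 1.44-fold, limma adjusted p = 2.99e-06), and the difference with hairpin 1 was -0.16 (adjusted p = 0.0445). That hairpin 1 call ended when any array except hairpin 1 array 1 or 2 was left out, with adjusted p between 0.0504 and 0.185. It also ended with no filter (0.0592), with no variance trend (0.101) and with the repeat number as a block (0.0563). Hairpin 2 minus hairpin 1 was 0.69 (1.61-fold, adjusted p = 3.82e-07).

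Adam19, which can shed neuregulins, read 8.39, 8.39 and 8.63 with hairpin 2, 8.46, 8.66 and 8.85 with hairpin 1, and 8.16, 8.33 and 8.16 with the scrambled hairpin. It rose with hairpin 1 (0.44, SE 0.11, 1.36-fold, limma adjusted p = 0.00587) and differed by 0.25 with hairpin 2 (adjusted p = 0.0893), which passed without hairpin 1 array 1 (0.0475) and with array weights (0.0497). The hairpin 1 call ended on the mean of both probe sets (0.19, adjusted p = 0.0578), of which the second lies under the filter. Every hairpin array was above the scrambled range. Adam33 read 7.65, 8.08 and 8.15 with hairpin 2, 7.60, 7.50 and 7.54 with hairpin 1, and 7.65, 7.55 and 7.61 with the scrambled hairpin. Hairpin 2 array 1 lay at the top of the scrambled range and the other hairpin 2 arrays above it. Adam33 was higher with hairpin 2 by 0.35 (SE 0.114, adjusted p = 0.0239), a call that ended without hairpin 2 array 2 (0.098) or 3 (0.112) or scrambled array 2 (0.0838) or 3 (0.0586). With hairpin 1 the Adam33 difference was -0.06, and hairpin 2 minus hairpin 1 was 0.41 (adjusted p = 0.0123), a call that ended without hairpin 2 array 2 (0.0539) or 3 (0.0613). The other Adam33 probe set, also above the filter, was higher by 0.40 with hairpin 2 (limma adjusted p = 0.00622). There the differences were 0.23 with hairpin 1 (adjusted p = 0.111, with no overlap) and 0.17 between hairpins (adjusted p = 0.297). The call between hairpins thus depends on the probe set.

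The sheddase of tumour necrosis factor, Adam17, averaged 10.42 ± 0.10 with hairpin 2, 10.42 ± 0.08 with hairpin 1 and 10.27 ± 0.08 with the scrambled hairpin (SD, n = 3 each). Its difference was 0.14 with hairpin 2 (limma adjusted p = 0.202) and 0.15 with hairpin 1 (adjusted p = 0.182), and neither passed. The hairpin 1 difference passed with array weights (0.19, 0.00776). On its other probe sets the Adam17 differences were -0.04 and -0.14 with hairpin 2 and 0.13 and -0.03 with hairpin 1, in the same order, with no call. Adam15 averaged 11.64 ± 0.18 with hairpin 2, 11.51 ± 0.12 with hairpin 1 and 11.64 ± 0.10 with the scrambled hairpin, and was not called on any of its 4 probe sets. Adam8, of leukocytes, passed no test. Adam12, of developing muscle and fat, passed none on its brightest probe set, at differences of 0.08 with each hairpin, while its other probe set was higher with hairpin 1 (0.46, limma adjusted p = 0.0291) and not called with hairpin 2 (0.33, adjusted p = 0.107). The catalytically inactive Adam11, Adam22 and Adam23, which act as binding partners at the cell surface, passed no test either, and Adam23 averaged 10.61 ± 0.10 with hairpin 2, 10.71 ± 0.15 with hairpin 1 and 10.71 ± 0.06 with the scrambled hairpin.

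The remaining 16 ADAM genes include many known from testis and sperm, such as Adam2 and Adam3. Of these, 13 lay under the filter, and the 3 tested, Adam3, Adam4 and Adam18, differed by -0.07 to -0.03 with hairpin 2 and by -0.08 to 0.01 with hairpin 1. Across all classes, 28 of the 65 members were not tested, with group means of 4.25 to 5.71 against a filter level of 5.72. Those just above the filter were Mmp3, Adam3 and Adam22, with overall means of 5.82, 5.86 and 5.94, and those just under it were Adam21, Mmp9 and Adamts7, at 5.67, 5.61 and 5.59. Each of the 37 tested genes had a mean above the filter in every group. With no filter, 2 of the 28 passed a test, Mmp13 with both hairpins and Adam2 with hairpin 1, and differences of the 28 spanned -0.16 to 0.45 with hairpin 2 and -0.12 to 0.40 with hairpin 1. In that setting 23.8% of all genes, bright ones included, were called with hairpin 2 and 22.1% with hairpin 1.

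Comparing the hairpins with each other, 11 of 37 genes were higher with hairpin 2 than with hairpin 1 (29.7%, against 11.6% of all tested genes) and 3 were lower (8.11%, against 17.4%). The first count was 7 without hairpin 2 array 3. The 11 were Adam9, Adam10, Adam33, Adamts10, Adamts12, Adamts15, Mmp2, Mmp14, Mmp19, Timp1 and Timp4, and the 3 were Adamts6, Mmp23 and Timp2. The median over the 37 was 0.07, beside -0.04 over all tested genes. Ebf1 was itself lower with hairpin 2 than with hairpin 1 (-0.50, limma adjusted p = 0.00351), and whether the protease differences follow that level was not tested.

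Where a called member had further probe sets above the filter, 0 gave an opposite call. With hairpin 2 the 14 called genes had 14 such probe sets, of which 9 gave the same call and 5 none. With hairpin 1 the 15 called genes had 18, of which 10 gave the same call and 8 none. Between hairpins 7 of 17 gave the same call and 10 none. These calls come from a fit over all probe sets, adjusted over them, so the threshold is stricter than in the gene fit. Some called genes missed it even on the probe set used. Among them were Adam9 and Adamts4 with hairpin 1 (limma adjusted p = 0.085 for each) and Adam33 with hairpin 2 (0.0579). A probe set without a call is therefore not a like comparison with the gene calls.

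**Figure D3:**
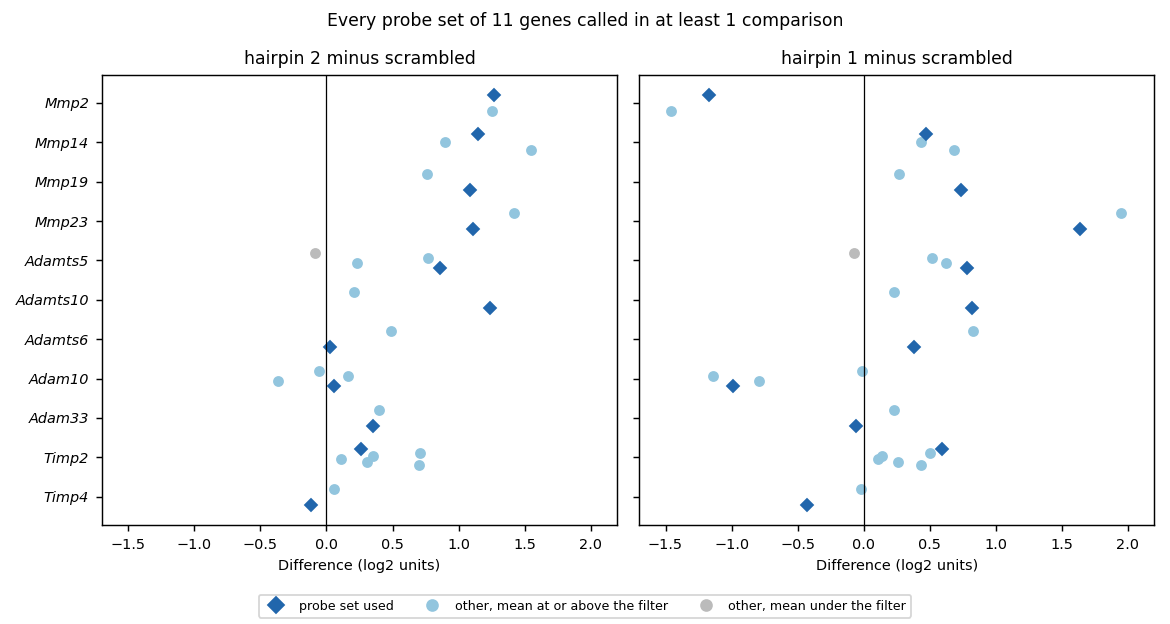
Difference from the scrambled arrays (log2 units) of every probe set of 11 genes, for hairpin 2 (left) and hairpin 1 (right); diamonds are the probe sets used, circles the others. Both Mmp2 probe sets lie above 0 with hairpin 2 (1.27 and 1.25) and below 0 with hairpin 1 (-1.17 and -1.46), and all 6 Timp2 probe sets lie above 0 with both hairpins.

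The activators, inhibitors and carriers of these proteases were followed as a list of genes outside the rule, chosen with earlier results of these data known. Of 23 tested, 13 were higher and 1 lower with hairpin 2 (median difference 0.24), and 8 were higher and 2 lower with hairpin 1 (median 0.22). Of all tested genes, 21.5% were higher and 13.3% lower with hairpin 2, and 23.7% were higher and 9.23% lower with hairpin 1. Plat, tissue-type plasminogen activator, read 10.12, 9.87 and 10.08 with hairpin 2, 8.60, 8.60 and 8.60 with hairpin 1, and 7.14, 7.26 and 7.35 with the scrambled hairpin. It rose by 2.77 with hairpin 2 (6.83-fold, limma adjusted p = 1.62e-12) and by 1.35 with hairpin 1 (2.55-fold, adjusted p = 2.97e-08). Tspan17, a tetraspanin that carries Adam10 to the cell surface, fell with hairpin 2 (-0.48, adjusted p = 0.000346) and with hairpin 1 (-1.06, adjusted p = 1.65e-07). Bsg, known as an inducer of MMPs, rose by 0.44 with hairpin 2 (adjusted p = 0.000416) and 0.53 with hairpin 1 (adjusted p = 9.50e-05). Cd44, the hyaluronan receptor on which MMPs can dock and itself a protein shed by ADAMs, rose by 1.60 with hairpin 2 (3.04-fold, adjusted p = 7.80e-10) and 0.85 with hairpin 1 (adjusted p = 2.54e-06).

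Other enzymes that build or cut matrix numbered 15 tested, with 6 higher and 2 lower with hairpin 2 (median 0.09) and 8 higher and 2 lower with hairpin 1 (median 0.40). The shares of all tested genes were 21.5% higher and 13.3% lower with hairpin 2, and 23.7% higher and 9.23% lower with hairpin 1. Bmp1, the procollagen C-proteinase, rose by 1.29 with hairpin 2 (2.44-fold, limma adjusted p = 4.73e-08) and by 1.03 with hairpin 1 (adjusted p = 1.18e-06). Ctsk, the collagen-cutting cathepsin, read 10.64, 10.74 and 10.72 with hairpin 2, 8.91, 9.10 and 9.04 with hairpin 1, and 9.03, 8.82 and 8.87 with the scrambled hairpin. It rose with hairpin 2 (1.79, 3.46-fold, adjusted p = 2.02e-10) and differed by 0.11 with hairpin 1 (adjusted p = 0.377). Ctsb, a lysosomal protease, fell with hairpin 2 (-0.52, adjusted p = 5.04e-08) and hairpin 1 (-0.20, adjusted p = 0.0012). Loxl3, of the collagen-linking lysyl oxidase family, fell with hairpin 2 (-0.96, adjusted p = 1.01e-05) and hairpin 1 (-1.56, 2.96-fold, adjusted p = 8.90e-08).

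Matrix substrates of these enzymes rose in the larger number. Of 22 tested, 14 were higher and 1 lower with hairpin 2 (median 0.35), and 16 were higher and 0 lower with hairpin 1 (median 0.34). Over all tested genes, 21.5% were higher and 13.3% lower with hairpin 2, and 23.7% were higher and 9.23% lower with hairpin 1. Col1a1, a chain of type I collagen, read 10.99, 10.96 and 11.08 with hairpin 2, 10.58, 10.70 and 10.90 with hairpin 1, and 9.11, 8.96 and 9.04 with the scrambled hairpin, higher by 1.98 with hairpin 2 and 1.69 with hairpin 1 (limma adjusted p = 6.81e-11 and 1.57e-09). Fn1, fibronectin, was higher by 1.61 with hairpin 2 and by 1.27 with hairpin 1 (adjusted p = 8.88e-12 and 7.07e-10). Of the collagen-binding proteoglycans, Dcn was higher by 1.46 with hairpin 2 and 1.42 with hairpin 1 (adjusted p = 9.01e-10 and 3.09e-09), and Lum by 2.00 with hairpin 2 and 1.58 with hairpin 1 (adjusted p = 2.48e-10 and 1.12e-08). Thbs1, which was lower with hairpin 2 (-0.34) and higher with hairpin 1 (1.35), was named after its values were seen. Markers of preadipocytes and fibroblasts moved beside this list, and type I collagen, decorin and lumican are themselves made by fibroblasts; the part of those cells was not tested.

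Membrane proteins that ADAMs shed were mixed. Of 20 tested, 7 were higher and 4 lower with hairpin 2 (median 0.13), and 8 were higher and 2 lower with hairpin 1 (median 0.15). Among all tested genes, 21.5% were higher and 13.3% lower with hairpin 2, and 23.7% were higher and 9.23% lower with hairpin 1. Hbegf, a ligand of the epidermal growth factor receptor, rose by 0.84 with hairpin 2 (limma adjusted p = 9.69e-06) and 1.51 for hairpin 1 (2.85-fold, adjusted p = 2.59e-08). Cx3cl1, a membrane-bound chemokine shed by Adam10 and Adam17, rose by 1.67 with hairpin 2 (3.17-fold, adjusted p = 1.19e-08) and 0.89 with hairpin 1 (adjusted p = 2.42e-05). Sdc4, a heparan sulfate proteoglycan, rose by 0.86 with hairpin 2 (adjusted p = 5.18e-08) and 0.50 with hairpin 1 (adjusted p = 3.47e-05). Shedding itself was not measured, since the arrays read mRNA.

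**Figure D4:**
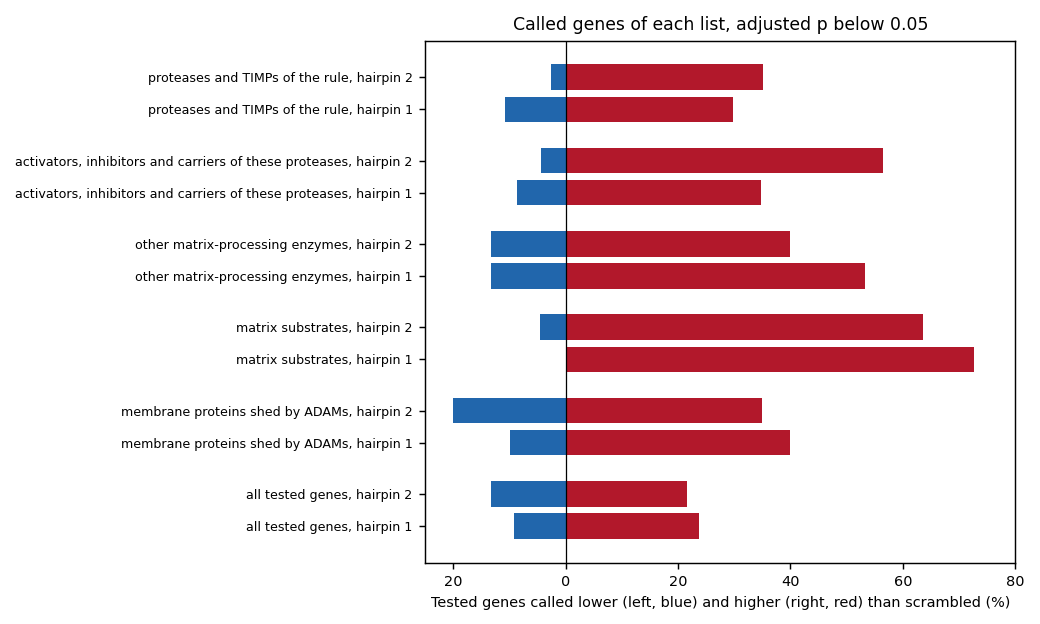
Share of tested genes called higher (right, red) and lower (left, blue) than scrambled, in percent, for the proteases and TIMPs, 4 lists of related genes and all tested genes, with hairpin 2 above hairpin 1 in each pair. Among matrix substrates 14 of 22 genes are higher with hairpin 2 and 16 of 22 with hairpin 1, while of all tested genes 21.5% are higher with hairpin 2 and 23.7% with hairpin 1. The shares of all tested genes that are lower are 13.3% with hairpin 2 and 9.23% with hairpin 1.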

How the data were processed

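The deposited values are log2 signals, 1 per probe set and array, which the authors computed with RMA, per the submitters' processing notes. A NuGEN kit for whole transcripts amplified the RNA before biotin labelling, per the labels' protocols. The build of the array annotation is not given in the sources used here. Of 45101 probe sets, 64 controls were left out, 34945 name 1 gene symbol, 932 name several and 9160 none; only those with 1 symbol were used. Genes were tested when the mean of their brightest probe set reached the 30th percentile (5.72). A linear model of the 3 groups on 9 arrays was fitted with limma 3.58.1 in R 4.3.3 (lmFit, eBayes with a trend), with Benjamini-Hochberg adjustment over 12735 genes, called at 0.05; p-values are two-sided. The number of arrays limits the precision. The fit was tested on simulated data. Values are given in full for each TIMP, for called members that differ by at least 0.5 and for the 10 members brightest on scrambled arrays; other called members were added for completeness, and each list gives the 4 genes whose p in the mean of the hairpins was lowest. Members and lists were chosen with earlier results of these data known. Filters, scaling, probe sets, array weights, the variance prior, the repeat number as a block and each array left out were tried as alternatives.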

Additional observations from a re-analysis of the deposited data

Results flagged for a closer look

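The effects of hairpin 2 and hairpin 1 against the scrambled hairpin differed by limma's test of the difference (adjusted p below 0.05 over all genes) for 14 genes, given as hairpin 2 minus hairpin 1 in log2 units. The 14 were among 37 tested members, and 29.1% of all tested genes passed the same test. The largest was Mmp2 at 2.44, followed by Adam10 at 1.05, Adamts15 at 0.87, Timp1 at 0.74, Adam9 at 0.69 and Mmp14 at 0.68. Smaller differences were Adamts10 at 0.43, Adam33 at 0.41, Mmp19 at 0.35, Adamts12 at 0.34 and Timp4 at 0.31. Negative values were Mmp23 at -0.53, Adamts6 at -0.35 and Timp2 at -0.33. The calls of Adamts10, Adam33, Mmp19, Adamts12, Timp4, Adamts6 and Timp2 did not hold in every alternative. For Mmp2 and Adam9 the hairpins lay on opposite sides of the scrambled level on every array.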

How the results depend on the processing

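Each result was recomputed under up to 17 alternatives. Of the called values named in the text, 11 of 14 with hairpin 2, 10 of 15 with hairpin 1, 11 of 14 in the mean of both and 7 of 14 between hairpins passed in every alternative run. With array weights, 7 members were lower with hairpin 1 and 8 lower with hairpin 2 than with hairpin 1, beside 17.4% and 29.9% of all tested genes. Without weights these counts were 4 and 3, beside 9.23% and 17.4% of all tested genes. In both directions together, weights called 58.6% of all genes with hairpin 1 and 47% between hairpins, against 33% and 29.1% without weights. With no filter, 19.1% of all genes were called between hairpins. With the filter at the 50th percentile, which left 23 members, the median was 0.26 with hairpin 2 and 0.15 in the mean of both. With the mean of all probe sets, 1 member was lower with hairpin 2 than with hairpin 1, and the Timp2 difference between hairpins turned to 0.07 (limma adjusted p = 0.629); the cause was not tested. Leaving out 1 array at a time gave 0 to 1 members lower and 11 to 14 higher with hairpin 2, 3 to 5 lower and 8 to 11 higher with hairpin 1, 1 to 3 lower and 10 to 14 higher in the mean of both, and 2 to 4 lower and 7 to 11 higher between hairpins. No scaling moved the median of all genes by over 0.1. The repeat numbers did not pair the arrays, with correlations of deviations from -0.293 to 0.25 and 3 of 9 same-numbered pairs above 0.1. With the repeat number as a block, 13 members were higher and 1 lower with hairpin 2, and 11 higher and 3 lower with hairpin 1; Adam9 missed the threshold with hairpin 1 (limma adjusted p = 0.0563). The background level of the arrays is not given in the sources used here, so how far low signals stand above it is unknown.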
